A study of Homo sapiens with 4 samples.

Results

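The 49 genes described here encode the chains of the collagens outside the basement membrane and the proteins that modify, fold, trim and cross-link them. They are every gene of the deposited table whose symbol is COL, a number, A and a number, without the collagen IV chains, COL15A1 and COL18A1, together with the P4HA, PLOD and LOX/LOXL families, SERPINH1 and PCOLCE. Of the 23615 gene symbols in the table, 36 collagens and 13 processing genes were chosen in this way by their names, with no threshold on measured values.

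All libraries came from RUES2, an established human embryonic stem cell line, and were made from poly-A RNA of unsorted cultures on day 14. Both groups shared the A100/B5 induction, activin A at 100 ng/ml followed by BMP4 at 5 ng/ml, together with the Wnt activator CHIR-99021. The ECsXAV group, which the labels describe as cardiac myocytes derived from anterior hemogenic endothelium, was moved on day 2 into a medium with VEGF, bFGF, BMP4 and 50 µg/ml ascorbic acid. It then received XAV-939, a tankyrase inhibitor that blocks Wnt/β-catenin signaling, at 2 µM from day 5. The CPC group, labelled as cardiac myocytes from cardiac progenitor cells, had no endothelial step. The supplement of the study draws 1 µM XAV-939 on day 3 for the cardiac route and states it for only some of the experiments, so its use in these cultures is not certain. There were 2 biological replicates in each group, all from 1 cell line. The sample names begin differently in each group, and what the prefix stands for is not given in the sources used here. If it marks separate experiments, these and the groups cannot be told apart.

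Collagens are trimers of alpha chains. Fibrillar collagens such as types I, II and III build the banded fibrils that give a tissue its tensile strength, FACIT collagens sit on the surface of those fibrils, and type VI forms beaded filaments close to cells. In the endoplasmic reticulum the chains are hydroxylated on proline and lysine and folded with the help of the chaperone HSP47, and after secretion the propeptides are cut off and lysyl oxidases cross-link the fibril. In the heart, types I and III are the main fibrillar collagens, and fibroblasts are known as their chief source.

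The values are FPKM, fragments divided by the length of the gene and by the mapped fragments of the library, so that levels of different genes can be set side by side within a library. Read totals were not used here and the absolute depth is unknown. From the steps between the lowest FPKM values, the other libraries had 50.1% to 86.9% of the depth of ECsXAV replicate 1, and ECsXAV replicate 2 was the shallowest. Fold changes are given as log2 differences of FPKM + 1, CPC minus ECsXAV, so a negative value is higher in ECsXAV, and the added 1 understates the change of weakly expressed genes. A gene passed the criterion with an adjusted p under 0.05 in limma, with Benjamini-Hochberg adjustment over 12398 genes with a mean of at least 1 FPKM, and a fold change over 2. With 2 libraries against 2, an exact two-sided permutation test of a single gene cannot go below p = 0.33, so the p-values rest on the spread that limma shares across genes. In bulk RNA, fewer cells of a type and less RNA per cell cannot be told apart. Cardiomyocyte markers were high throughout, with TNNT2, cardiac troponin T, between 2309 and 2988 FPKM, and 2 of the 11 passed the criterion. MYH7, the beta myosin heavy chain, had 1012 and 931 FPKM in ECsXAV and 147 and 194 FPKM in CPC, and MYH6, the alpha heavy chain, had 855 and 857 FPKM against 2070 and 1901 FPKM.

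Collagen mRNA was abundant in the unsorted cultures of both groups, and its total overlapped between the groups while its make-up differed. By flow cytometry, the study found cells without cardiac troponin T in cultures of both routes and reported no difference in purity. Which cells held the collagen mRNA was not tested. The 36 collagens summed to 578 and 639 FPKM in the ECsXAV libraries and to 632 and 661 FPKM in the CPC libraries. The CPC sums lie within or just above the ECsXAV values. COL2A1, the alpha chain of type II collagen and best known from cartilage, was the most abundant collagen in every library. It made up 20.6% ± 2.31 of the summed collagen FPKM in ECsXAV and 38.5% ± 1.15 in CPC (SD, n = 2). The alpha chains of type I collagen took the opposite course, with 11.5% ± 1.62 against 4.40% ± 0.224 for COL1A1 and 12.4% ± 0.877 against 7.17% ± 0.701 for COL1A2. Without COL2A1, the fibrillar collagens summed to 271 ± 30.4 FPKM in ECsXAV and 170 ± 2.79 FPKM in CPC.

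**Figure D1:**
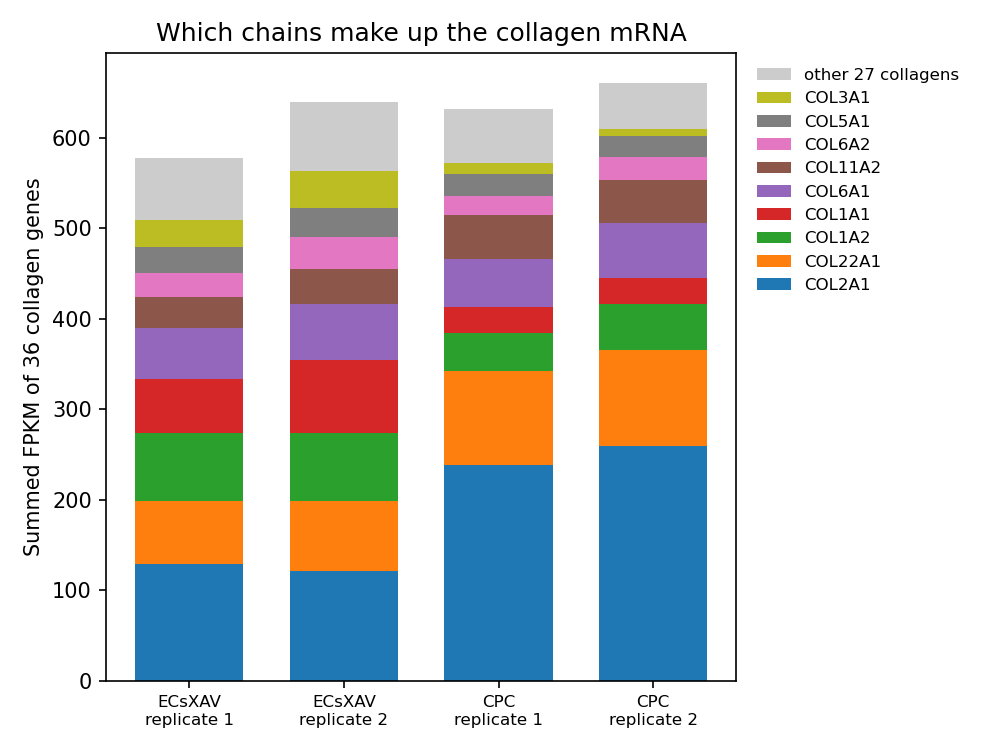
Summed FPKM of the 36 collagen genes (vertical axis, from 0) in each of the 4 libraries, with the 9 collagens of highest mean FPKM as coloured blocks and the other 27 in grey. The bars are of like height, the COL2A1 block at the bottom reaches 238 and 260 FPKM in the CPC libraries against 128 and 121 FPKM in the ECsXAV libraries, and the COL1A1 and COL3A1 blocks are smaller in CPC.

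Of the 49 genes, 36 reached a mean of 1 FPKM and were tested, namely 24 collagens and 12 processing genes. Of these, 6 passed the criterion, against 2.15% of all tested genes. All 6 were collagens that were higher in ECsXAV (1.44% of all tested genes passed in that direction). Of the 6, COL12A1, COL21A1 and COL6A3 were under 1 FPKM in both CPC libraries and entered the test through their ECsXAV libraries alone. Genes let in this way could only be called as higher in ECsXAV. None of the 12 processing genes passed, and no member passed as higher in CPC, where 0.710% of all tested genes did. At an unadjusted p under 0.05, 21 of the 36 differed in limma (17 collagens and 4 processing genes), against 18.2% of all tested genes. The median log2 difference was -0.36 over the 24 tested collagens and 0.02 over the 12 processing genes, beside -0.0045 over all tested genes. The libraries of the groups did not overlap for 28 of the 36, with 17 higher in ECsXAV and 11 in CPC, where 49.8% of all tested genes did not overlap. These calls are sensitive to the number of libraries. Without ECsXAV replicate 1, COL12A1, COL21A1 and COL6A3 still passed, without ECsXAV replicate 2 only COL12A1 and COL21A1 did, and without either CPC replicate 0 of the 36 passed, with 21 and 18 at an unadjusted p under 0.05. With no filter on low FPKM, 0 of 49 passed in limma and 22 had an unadjusted p under 0.05, and over all genes the calls fell from 266 to 20.

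**Figure D2:**
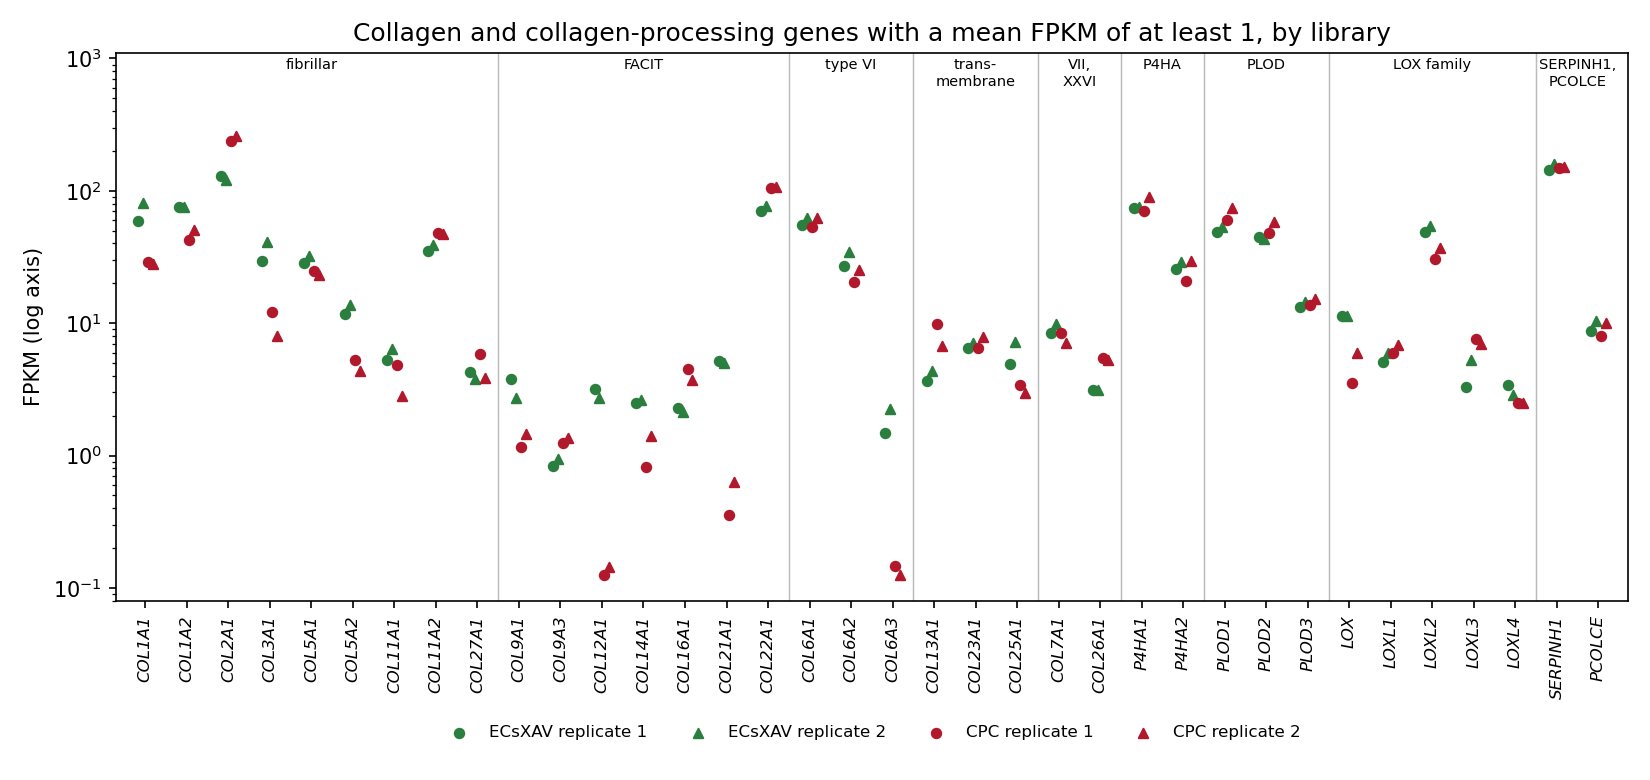
FPKM (log axis) of the 36 tested collagen and processing genes in each library, ordered by class, with green for ECsXAV, red for CPC, circles for replicate 1 and triangles for replicate 2. COL12A1, COL21A1 and COL6A3 show the widest gaps, with both CPC libraries under 1 FPKM, whereas the points of the hydroxylases, SERPINH1 and PCOLCE lie close together.

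Among the 11 fibrillar collagens, 3 of 9 tested were higher in ECsXAV by the criterion, COL1A1, COL3A1 and COL5A2. COL1A1, the alpha1 chain of type I collagen (chr17:48261462-48278993, GRCh37, minus strand), had 59.6 and 80.6 FPKM in ECsXAV and 28.8 and 28.0 FPKM in CPC. Both ECsXAV libraries were above both CPC libraries, with a log2 difference of -1.26 (SE, the standard error, 0.17; adjusted p 0.0409 in limma). COL3A1, the chain of type III collagen (chr2:189839099-189877472, plus strand), had 29.7 and 41.4 FPKM against 12.1 and 8.01 FPKM. This was the largest change of a fibrillar chain, with a log2 difference of -1.73 (SE 0.25, adjusted p 0.0442). COL5A2, a chain of the type V collagen that nucleates type I fibrils (chr2:189896624-190090038, minus strand), had 11.8 and 13.8 FPKM against 5.25 and 4.38 FPKM, and its log2 difference was -1.25 (SE 0.14, adjusted p 0.0291). COL3A1 and COL5A2 are neighbours on chromosome 2, on opposite strands with 19151 bases between them.

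The partner chains of types I and V had smaller log2 differences. COL1A2, the alpha2 chain of type I collagen, had 75.0 and 75.1 FPKM in ECsXAV and 42.2 and 50.7 FPKM in CPC, a log2 difference of -0.69 that did not pass (SE 0.13, adjusted p 0.0759 in limma). The ratio of COL1A1 to COL1A2 FPKM was 0.794 and 1.07 in the ECsXAV libraries and 0.683 and 0.554 in the CPC libraries, 0.934 ± 0.197 against 0.618 ± 0.0916 (SD, n = 2). The type I trimer holds more alpha1 than alpha2 chains, while the message of COL1A1 exceeded that of COL1A2 in only 1 of the 4 libraries. The groups did not overlap in this ratio, and the exact two-sided permutation test gave p = 0.33, the smallest that 2 against 2 can give. COL3A1 made up 18.1% and 21.0% of the summed COL1A1, COL1A2 and COL3A1 FPKM in ECsXAV and 14.6% and 9.24% in CPC, again without overlap. COL5A1, the other type V chain, had 28.3 and 32.0 FPKM against 24.9 and 23.2 FPKM, and its log2 difference was -0.31, with a 95% interval of -0.62 to -0.01 that lies within 2-fold. The ratio of COL5A1 to COL5A2 was accordingly 2.36 ± 0.0498 in ECsXAV and 5.02 ± 0.399 in CPC.

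COL2A1 (chr12:48366750-48398337, minus strand) was the fibrillar collagen with the clearest difference in the other direction. It had 128 and 121 FPKM in ECsXAV and 238 and 260 FPKM in CPC, so each CPC library was well above each ECsXAV library. Its log2 difference of 0.99 (SE 0.12, adjusted p 0.0331 in limma) stayed just below the 2-fold limit, with a 95% interval of 0.68 to 1.30, so it did not pass the criterion. Under quantile normalization it did, at 1.12, with a range of 0.93 to 1.12 over all alternatives. Its adjusted p ranged from 0.00084 to 0.286 in limma and was above 0.05 with no filter (0.0769) and with any library left out (0.108 to 0.286). The ratio of COL2A1 to COL1A1 FPKM was 1.83 ± 0.459 in ECsXAV and 8.76 ± 0.707 in CPC. Nearly all COL2A1 message was assigned to the RefSeq transcript NM_001844, which carries the alternative exon 2 of the amino propeptide (chr12:48393702-48393908, 207 bases, GRCh37). The transcript without that exon, NM_033150, had between 0.00215 and 0.0209 FPKM in the 4 libraries. The form with exon 2, known as type IIA procollagen, is the one described in embryonic and non-cartilage tissues.

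Chondrogenic markers and other collagens of cartilage were read beside COL2A1, and the cell source of COL2A1 was not tested. SOX9, the transcription factor that drives COL2A1 in cartilage, and ACAN, the cartilage proteoglycan aggrecan, were below 1 FPKM in every library. The 7 chondrogenic markers summed to 8.91 and 7.62 FPKM in ECsXAV and 5.06 and 4.29 FPKM in CPC, so their sum was lower in the group with more COL2A1, and 0 of the 2 tested, MATN3 and HAPLN1, passed in limma (both had an unadjusted p under 0.05). Of the collagens that build cartilage fibrils with type II, COL11A2 had 34.9 and 39.0 FPKM in ECsXAV and 48.2 and 47.3 FPKM in CPC, a log2 difference of 0.36 that did not pass (adjusted p 0.184 in limma). COL11A2 lies in the MHC region and is listed at 7 loci, of which 1 had FPKM above 0 in each library. COL11A1, its partner, had 5.32 and 6.39 FPKM against 4.85 and 2.81 FPKM, and its log2 difference was -0.53 with a 95% interval of -1.15 to 0.09. The remaining tested fibrillar collagen, COL27A1, overlapped between the groups with 4.01 FPKM on average in ECsXAV and 4.83 FPKM in CPC.

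The largest log2 difference and the largest ratio of means among the 36 were found in FACIT collagens. Of 10, 7 were tested and 2 passed, COL12A1 and COL21A1, both higher in ECsXAV. COL12A1 (chr6:75794042-75915983, minus strand), whose product links type I fibrils to other matrix components in tendon and muscle, had 3.18 and 2.70 FPKM in ECsXAV and only 0.125 and 0.144 FPKM in CPC. The ratio of the group means was 21.8, and the log2 difference on the FPKM + 1 scale was -1.79 (SE 0.16, adjusted p 0.0169 in limma). COL21A1 (chr6:55921388-56258892, minus strand), a FACIT collagen found in blood vessel walls, had 5.15 and 5.02 FPKM against 0.354 and 0.628 FPKM. Its ratio of means was 10.4, with a log2 difference of -2.04 (SE 0.16, adjusted p 0.0130), the largest of the 36 on that scale.

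COL22A1 was abundant and higher in the CPC libraries. It is a FACIT collagen known from tissue junctions such as that of muscle and tendon, and was the second most abundant collagen in CPC. It had 70.7 and 77.3 FPKM in ECsXAV and 105 and 106 FPKM in CPC, without overlap, a log2 difference of 0.51 that did not pass (SE 0.11, adjusted p 0.0994 in limma). COL22A1 alone supplied most of the FACIT sum of 91.4 ± 3.64 FPKM in ECsXAV and 114 ± 1.30 FPKM in CPC. The other 4 tested FACIT genes were below 5 FPKM in every library. COL9A1, a chain of the type IX collagen that coats type II fibrils, averaged 3.26 FPKM in ECsXAV and 1.30 FPKM in CPC (log2 difference -0.88, adjusted p 0.0918), so that the ratio of COL2A1 to COL9A1 was 39.1 ± 7.63 against 193 ± 19.7. COL14A1, which binds to fibril surfaces, averaged 2.55 FPKM against 1.11 FPKM (-0.77, adjusted p 0.124), and COL16A1 2.20 FPKM against 4.11 FPKM (0.67, adjusted p 0.0945). COL9A3, another type IX chain, averaged 0.889 FPKM against 1.31 FPKM, with a 95% interval of its log2 difference from -0.10 to 0.68.

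Type VI collagen is assembled from an alpha1, an alpha2 and an alpha3 chain, and 1 of its 3 tested chains passed. COL6A1 (chr21:47401684-47424964, plus strand) had 55.6 and 62.5 FPKM in ECsXAV and 53.1 and 61.8 FPKM in CPC. These values overlap, and the 95% interval of the log2 difference of -0.04 ran from -0.38 to 0.30. COL6A2 (chr21:47518026-47552762, plus strand), 93061 bases from COL6A1, had 26.9 and 34.7 FPKM against 20.6 and 25.4 FPKM, and its log2 difference was -0.40, which did not pass (adjusted p 0.326 in limma). COL6A3 (chr2:238232646-238322971, minus strand) was far lower than both in all libraries, with 1.49 and 2.25 FPKM in ECsXAV and 0.146 and 0.126 FPKM in CPC. It passed the criterion with a log2 difference of -1.32 (SE 0.20, adjusted p 0.0459) and a ratio of means of 13.7. Its mean over all libraries, 1.001 FPKM, was only just above the filter of 1 FPKM. Quantile normalization ended the calls of COL6A3 and COL3A1, with adjusted p of 0.0678 and 0.0506 in limma, and a pseudocount of 0.1 that of COL6A3, at 0.0743. Over all alternatives the adjusted p ranged from 0.0019 to 0.155 for COL6A3 and from 0.0011 to 0.177 for COL3A1. The ratio of COL6A1 to COL6A3 was 32.6 ± 6.83 in ECsXAV and 428 ± 90.1 in CPC, while that of COL6A1 to COL6A2 was 1.93 ± 0.193 and 2.51 ± 0.102. COL6A5 and COL6A6, which encode alternatives to the alpha3 chain, were at or below 0.0548 FPKM in every library.

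**Figure D3:**
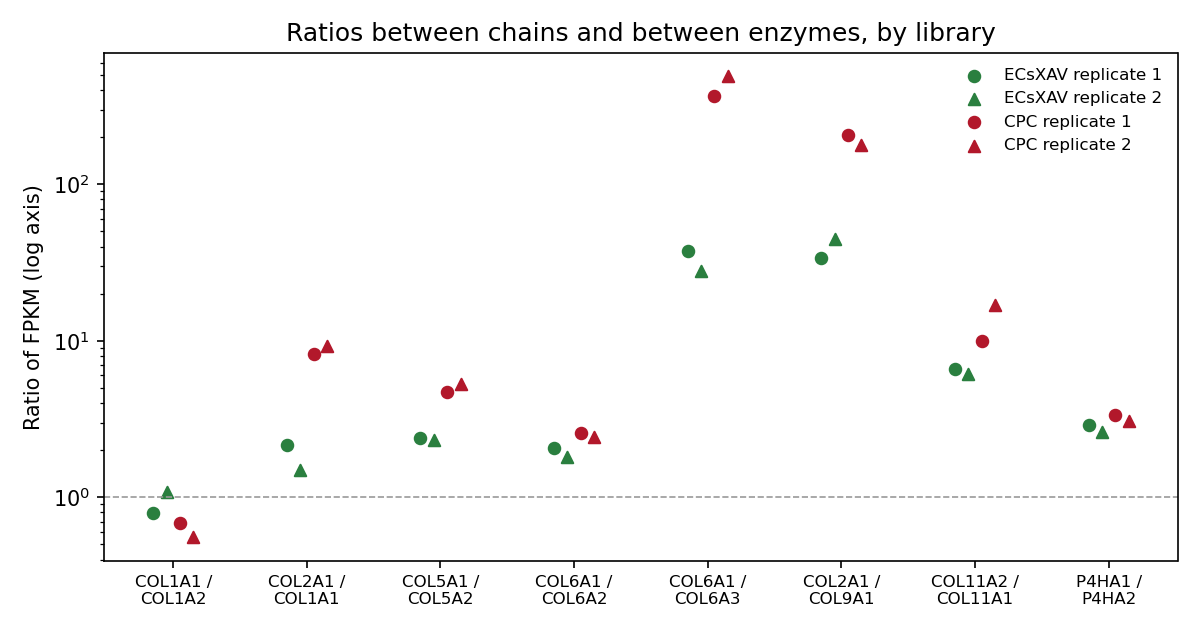
Ratio of FPKM between the named chains or enzymes (log axis) in each library, green for ECsXAV and red for CPC, with the dashed line at equal levels. The ratio of COL6A1 to COL6A3 lies at 27.8 and 37.5 in ECsXAV and at 364 and 492 in CPC, and that of COL2A1 to COL1A1 at 1.50 and 2.15 against 8.26 and 9.26, while that of P4HA1 to P4HA2 lies between 2.60 and 3.38.

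The 250 bases upstream of the start were read from RefSeq (GRCh38.p14) for COL12A1 and COL6A3, the genes with the largest ratios between the groups. They were also read for COL6A2, a type VI partner that, like COL6A1, did not pass. They are written 5′ to 3′ on the strand of the gene, with searched motifs in capitals.
COL12A1, chr6:75206054-75206303, minus strand: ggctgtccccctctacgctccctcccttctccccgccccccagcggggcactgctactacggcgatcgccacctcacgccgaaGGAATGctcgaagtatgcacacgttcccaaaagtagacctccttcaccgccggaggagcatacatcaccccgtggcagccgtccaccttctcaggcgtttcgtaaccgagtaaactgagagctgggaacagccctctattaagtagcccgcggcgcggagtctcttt
COL6A3, chr2:237414165-237414414, minus strand: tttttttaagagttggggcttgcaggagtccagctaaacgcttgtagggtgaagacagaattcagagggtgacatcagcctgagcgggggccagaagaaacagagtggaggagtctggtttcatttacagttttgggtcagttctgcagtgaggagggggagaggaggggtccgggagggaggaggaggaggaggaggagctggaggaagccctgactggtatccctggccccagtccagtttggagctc
COL6A2, chr21:46097862-46098111, plus strand: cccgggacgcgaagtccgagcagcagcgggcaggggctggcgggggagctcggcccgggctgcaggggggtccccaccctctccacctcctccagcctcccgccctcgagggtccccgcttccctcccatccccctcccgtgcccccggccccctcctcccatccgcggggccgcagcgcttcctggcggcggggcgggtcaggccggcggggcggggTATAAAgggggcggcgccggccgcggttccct
Searched on both strands were CCAAT (the CCAAT box), TATAAA (the TATA box), GGAATG (the TEAD site) and TGANTCA (the AP-1 site). The COL12A1 window held 1 GGAATG, the COL6A2 window 1 TATAAA, and the COL6A3 window none of the motifs. Over 35116 promoters cut to the same 250 bases, 32.01% held CCAAT, 10.72% TATAAA, 11.89% GGAATG and 6.573% TGANTCA. RefSeq promoters were at hand for 35 of the 49 genes.

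The transmembrane and remaining collagens were expressed at low levels and none passed. COL13A1, a transmembrane collagen of cell adhesion sites, had 3.66 and 4.38 FPKM in ECsXAV and 9.89 and 6.70 FPKM in CPC, a log2 difference of 0.87 (SE 0.20, adjusted p 0.115 in limma). COL25A1, a transmembrane collagen known from muscle innervation, had 4.89 and 7.16 FPKM against 3.39 and 2.95 FPKM, and its log2 difference was -0.73 (adjusted p 0.143). COL23A1, also a transmembrane collagen, overlapped between the groups at 6.51 to 7.84 FPKM. COL7A1, the chain of the anchoring fibrils of skin, averaged 9.18 FPKM against 7.76 FPKM, and COL26A1 3.12 FPKM against 5.35 FPKM (log2 difference 0.62, adjusted p 0.0710).

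The 13 genes that stayed under a mean of 1 FPKM were COL5A3, COL24A1, COL9A2, COL19A1, COL20A1, COL6A5, COL6A6, COL8A1, COL8A2, COL10A1, COL17A1, COL28A1 and P4HA3. Their values ran from 0 to 0.729 FPKM, 7 of them were listed at 0 in some library and none in all 4. All 3 network-forming short-chain collagens were in this group, including COL10A1, the marker of hypertrophic cartilage, at 0.0293 FPKM or less. The highest of the 13 was COL8A1, a collagen of the vessel wall, with 0.559 and 0.729 FPKM in ECsXAV and 0.184 and 0.180 FPKM in CPC.

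**Figure D4:**
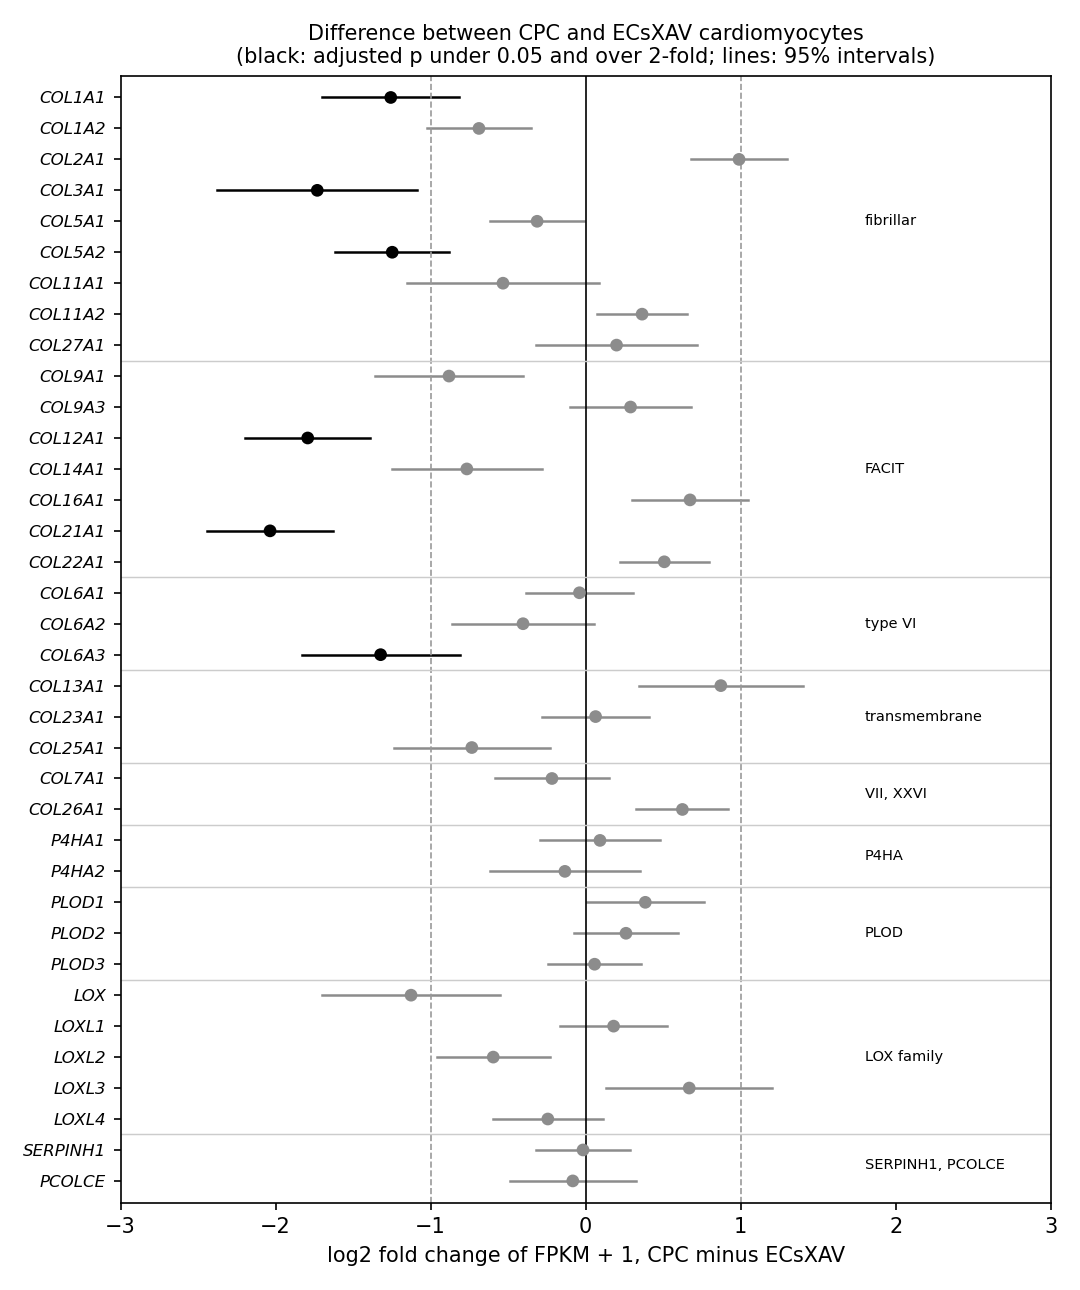
Log2 difference of FPKM + 1, CPC minus ECsXAV (horizontal axis), with its 95% interval from limma for the 36 tested genes, ordered by class, with dashed lines at 2-fold. The 6 genes past the criterion, in black, all lie left of -1, COL2A1 at 0.99 is the rightmost, and the intervals of 10 of the 12 processing genes lie within 2-fold.

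Of the 7 tested genes that act on the nascent chain or its propeptide, 0 passed in limma, where 2.15% of all tested genes did. An unadjusted p under 0.05 in limma was found for 1, against 18.2% of all tested genes, and all 7 had 95% intervals within 2-fold. P4HA1 and P4HA2, catalytic subunits of the prolyl 4-hydroxylases whose products keep the triple helix stable, were both well expressed. P4HA1 had 74.3 and 75.3 FPKM in ECsXAV and 70.9 and 89.8 FPKM in CPC, and the 95% interval of its log2 difference of 0.09 ran from -0.29 to 0.48. P4HA2 had 25.8 and 29.0 FPKM against 21.0 and 29.3 FPKM, and P4HA1 was the major form in every library. The lysyl hydroxylases PLOD1, PLOD2 and PLOD3, which prepare lysines for cross-links and sugars, had log2 differences of 0.38, 0.26 and 0.06, none of which passed, and all 3 intervals lay within 2-fold. PLOD1 had 48.9 and 53.8 FPKM in ECsXAV and 60.5 and 74.6 FPKM in CPC, without overlap (adjusted p 0.266 in limma). SERPINH1, which encodes HSP47, was the most abundant of the 13 with 144 and 159 FPKM against 149 and 151 FPKM, and its log2 difference was -0.02 with a 95% interval of -0.32 to 0.29. PCOLCE, which enhances the removal of the carboxyl propeptide, averaged 9.53 FPKM against 8.97 FPKM.

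PLOD2 is spliced in alternative forms, and the sequence of its variable exon is shown because its presence separates them. The exon has 63 bases, a multiple of 3, and is exon 14 of 20 in the longer transcript (chr3:145795649-145795711, GRCh37, minus strand). It is written in capitals between 12 bases of intron on either side.
PLOD2, chr3:145795637-145795723: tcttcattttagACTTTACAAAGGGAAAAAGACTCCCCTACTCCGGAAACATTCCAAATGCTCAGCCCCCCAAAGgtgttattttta
The transcript with this exon, NM_182943, encodes LH2b, the form that hydroxylates lysines in the telopeptides. It had 44.9 and 43.1 FPKM in ECsXAV and 47.1 and 57.8 FPKM in CPC. The transcript without it, NM_000935, reached 1.35 FPKM in CPC replicate 1 and no more than 0.00401 FPKM in the other libraries, so the long form made up at least 97.2% of PLOD2 in each library.

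Of the 5 lysyl oxidases, which start the covalent cross-linking of collagen and elastin, none passed, and LOX had the largest log2 difference of the 12 tested processing genes. LOX had 11.3 and 11.3 FPKM in ECsXAV and 3.55 and 5.94 FPKM in CPC. Its groups did not overlap, and its log2 difference was -1.13 (SE 0.22, adjusted p 0.0810 in limma). With short RNA genes left out of the fit, LOX did pass, with an adjusted p of 0.0110, in a range of 0.00275 to 0.364 over its alternatives in limma. LOXL2, the most abundant of the family, had 48.8 and 53.9 FPKM against 30.4 and 37.1 FPKM, and its log2 difference was -0.60 (SE 0.14, adjusted p 0.117). LOXL3 had 3.30 and 5.25 FPKM against 7.55 and 6.93 FPKM, and its log2 difference was 0.67 (adjusted p 0.188), and LOXL1 and LOXL4 had log2 differences of 0.18 and -0.24. The 5 genes summed to 75.6 ± 5.17 FPKM in ECsXAV and 54.6 ± 6.58 FPKM in CPC (SD, n = 2), and LOXL2 supplied 68.0% ± 0.153 and 61.7% ± 1.24 of the sum.

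Transcripts of the other genes were compared as the share of each in the FPKM of its gene, as Cufflinks estimated it. Of the 36 tested genes, 14 had more than 1 transcript in the table and 9 had at least 2 transcripts with 10% or more in some library. For COL12A1 the long form NM_004370 took 85.1% and 92.6% in ECsXAV and 59.2% and 67.5% in CPC, where the gene had 0.125 and 0.144 FPKM. The remainder was the short form NM_080645. For COL11A1, NM_001854 took 78.0% ± 4.79 in ECsXAV and 67.1% ± 3.09 in CPC (SD, n = 2). For P4HA1, NM_000917 took 82.2% ± 5.71 and 76.8% ± 1.08, and for COL6A3, NM_057166 took 80.5% ± 5.97 and 81.3% ± 26.5, where the CPC libraries held only 0.146 and 0.126 FPKM of the gene.

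Of 49 further genes of the collagen pathway in 4 lists, 37 were tested. Among these, 4 passed, against 2.15% of all tested genes, and all 4 were higher in ECsXAV (1.44% of all tested genes). Tested genes of collagen biosynthesis outside the members numbered 19, such as the prolyl 3-hydroxylases, the galactosyltransferases, the chaperones and the propeptidases. Of these 19, 0 passed in limma and 7 had an unadjusted p under 0.05, against 18.2% of all tested genes. The intervals of 15 of the 19 lay within 2-fold. The most abundant were PPIB, a prolyl isomerase, with 169 and 182 FPKM in ECsXAV and 163 and 185 FPKM in CPC, P4HB, the beta subunit of the prolyl 4-hydroxylases, and FKBP10, a further chaperone. BMP1, the proteinase that removes the carboxyl propeptide, had 8.89 and 9.23 FPKM against 4.63 and 4.36 FPKM, with an adjusted p of 0.0358 in limma. Its log2 difference of -0.87 was under 2-fold on the FPKM + 1 scale, so it did not pass, while its ratio of means was 2.02.

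The genes that passed came from the lists of collagen receptors, fibril partners and TGF-beta genes, which hold surface or secreted proteins by choice. LUM, lumican, a proteoglycan that controls fibril diameter, had 8.21 and 10.7 FPKM in ECsXAV and 0.652 and 0.473 FPKM in CPC, a log2 difference of -2.74 (adjusted p 0.0091 in limma). SPARC, a collagen-binding protein of the matrix, had 106 and 121 FPKM against 36.8 and 38.8 FPKM (log2 difference -1.56, adjusted p 0.0130), and these were 2 of 7 tested fibril regulators and partners. FN1, fibronectin, was abundant in this list and had 80.5 and 88.7 FPKM against 69.6 and 45.3 FPKM (-0.58, adjusted p 0.274). Of the collagen receptors 1 of 4 tested passed, ITGA1, the alpha1 integrin, with 1.92 and 2.12 FPKM against 0.249 and 0.321 FPKM, whereas ITGB1, its beta partner, had a log2 difference of -0.11. ITGA1 did not pass with a pseudocount of 0.1 or under quantile normalization. Both ITGA1 and LUM were under 1 FPKM in the 2 CPC libraries and entered the test through ECsXAV alone. Of the TGF-beta ligands, binding proteins and targets 1 of 7 passed, CTGF, a matrix-associated signaling protein, at 23.2 and 29.9 FPKM against 6.83 and 7.09 FPKM. TGFB2, a ligand of the pathway, was 35.5 FPKM on average in ECsXAV and 74.4 FPKM in CPC, a log2 difference of 1.03 that did not pass (adjusted p 0.0699). With 1 library left out, fewer or none of LUM, SPARC, ITGA1 and CTGF kept their calls, and calls over all genes fell too.

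**Figure D5:**
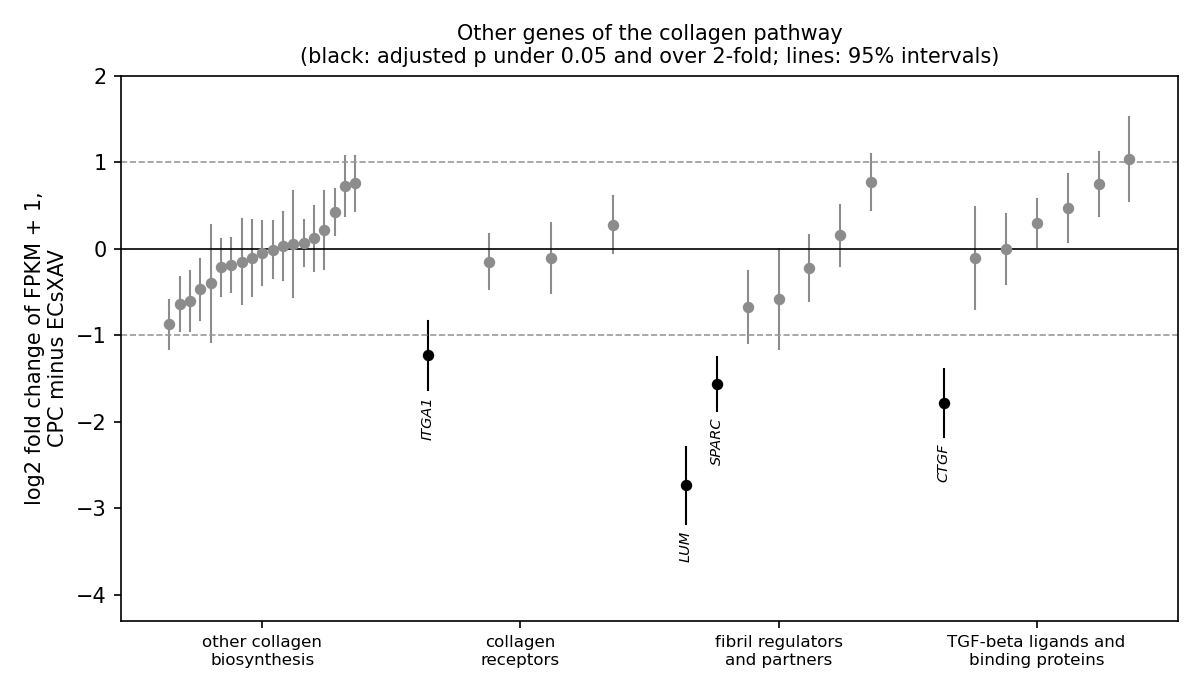
Log2 difference of FPKM + 1, CPC minus ECsXAV (vertical axis), with 95% intervals from limma, for the 37 tested pathway genes in their 4 lists, sorted within each list, with dashed lines at 2-fold. The 4 genes past the criterion are black and named and all lie below -1, and no gene of the biosynthesis list is among them.

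Markers of other cell types were read beside these results. The 10 fibroblast markers summed to 102 and 99.4 FPKM in ECsXAV and 83.7 and 90.1 FPKM in CPC. Of them, 6 were under 1 FPKM in every library, DCN and TCF21 included, FAP was at 0 in all, S100A4 was the most abundant, and of the 4 tested only LUM passed, while PDGFRA had a log2 difference of 0.19 and POSTN one of 0.15. The 6 smooth muscle markers summed to 297 and 267 FPKM against 141 and 168 FPKM, and 1 of 4 tested passed, TAGLN, a calponin-family protein, with 116 and 108 FPKM against 15.8 and 22.6 FPKM. MYH11, the myosin of mature smooth muscle, was under 1 FPKM in every library, and ACTA2 had a log2 difference of 0.16. CNN1, calponin, had 94.2 and 94.9 FPKM against 45.5 and 60.5 FPKM (log2 difference -0.84, adjusted p 0.0803 in limma). The 7 hepatic and endoderm markers summed to 41.4 and 33.4 FPKM against 16.6 and 18.7 FPKM. APOA1, the most abundant, had 20.6 and 17.9 FPKM against 15.9 and 17.8 FPKM (log2 difference -0.18, adjusted p 0.530 in limma). Of the 4 tested, 3 were higher in ECsXAV by the criterion, AFP, TTR and APOA2, each under 1 FPKM in both CPC libraries. ALB, FOXA2 and SOX17 were under 1 FPKM throughout. The 6 epicardial markers summed to 2.22 and 1.96 FPKM against 1.26 and 1.11 FPKM, and 0 of them reached the filter for testing. TBX18 made up most of the ECsXAV sums, with 1.49 and 1.49 FPKM against 0.444 and 0.348 FPKM. The other 5 were under 1 FPKM in every library, and ALDH1A2 was higher in CPC, with 0.0451 and 0.0600 FPKM against 0.294 and 0.207 FPKM. The 8 endothelial markers summed to 13.0 and 11.6 FPKM against 14.4 and 11.3 FPKM. The 11 cardiomyocyte markers summed to 15374 and 14825 FPKM against 13187 and 13866 FPKM. MYL7 was the largest part, with 8786 and 8535 FPKM against 6701 and 7142 FPKM (log2 difference -0.32, adjusted p 0.491 in limma). Of the 11, 7 had a negative log2 difference and 4 a positive one. The 5 pluripotency markers summed to 8.52 and 5.63 FPKM against 4.36 and 3.33 FPKM, with NANOG at 0 in all, and 0 of the 2 tested passed. TDGF1 made up most of the ECsXAV sums, with 6.67 and 3.06 FPKM against 1.68 and 1.47 FPKM (adjusted p 0.164 in limma). LIN28A overlapped between the groups, with a log2 difference of 0.04. The sums of the fibroblast, smooth muscle, hepatic, epicardial, chondrogenic, cardiomyocyte and pluripotency markers were thus higher in both ECsXAV libraries. MYL7, TDGF1 and TBX18 made up much of the cardiomyocyte, pluripotency and epicardial sums, and some other members of these lists averaged higher in CPC. COL1A1, COL3A1, COL5A2, COL12A1, COL21A1 and COL6A3 were higher in ECsXAV as well, and the part of the marker genes' cell types in that difference was not tested.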

How the data were processed

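Poly-A RNA-seq was analysed for 2 ECsXAV and 2 CPC cultures, grouped by the sample labels. The authors deposited FPKM values per gene and per transcript, which they computed with Cufflinks 2.1.1 and UCSC annotations. The submitters' processing notes name TopHat 1.3.3 and hg19. FPKM keep no read totals, so count tests were not used, and reads shared by near-identical genes were assigned by an estimate. Cultures are stated to be biological replicates.

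Genes averaging 1 FPKM or more, 12398 in all, were tested on log2(FPKM + 1) with limma 3.58.1 (R 4.3.3), with an intensity trend and Benjamini-Hochberg adjustment. COL11A2 was taken from its highest locus in each library. Coordinates are GENCODE 44 lifted to GRCh37, and promoters are RefSeq GRCh38.p14. Python 3.11.15 was used for tables (pandas 2.3.3 with NumPy 2.4.6) and for plots (matplotlib 3.10.9). Tested on simulated data of 12256 genes, the fit recovered 99% of 200 genes changed by 2 on the log2 scale, with 17 false calls and 0 wrong signs. The changed genes were drawn only from those above about 5 FPKM, with independent normal noise of the variances that limma itself had estimated. The simulation therefore says nothing on recovery of weaker genes, such as COL12A1, COL21A1 and COL6A3, or of smaller changes.

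Members and gene lists were chosen with earlier results of these data known. A gene of the pathway lists is not reported here and enters no count of those lists. The text accounts for every member, and names those past the criterion and the most abundant. Of the other lists it names the genes past the criterion and up to 3 of the most abundant, and BMP1, TGFB2, FN1, SOX9, ACAN, MATN3, HAPLN1 and the defining markers that were near 0 or differed little were named after their values were seen. Alternatives were a pseudocount of 0.1, other filters and scalings, no trend, a replicate block, short RNA genes left out, the isoform table and each replicate left out.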

Additional observations from a re-analysis of the deposited data

How the results depend on the processing

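Counts of genes past the criterion moved with the filter and the number of libraries. Against 6 of the 36 collagen and processing genes, 0 passed with no filter on low FPKM and 3 with a mean FPKM of at least 5, where 24 remained to be tested. Of the pathway genes, 0 and 3 passed in place of 4. Leaving out 1 library ended some or all of the calls in both sets, and calls over all genes fell too. Such a fit assumes that the lone library of a group varies like the other group. A pseudocount of 0.1 gave 5 and 3, quantile normalization 5 and 3 (COL2A1 gained, COL3A1 and COL6A3 lost), and median-of-ratios scaling, no trend and the use of isoforms gave 6 and 4 each. With short RNA genes left out 7 and 5 passed, with LOX and TGFB2 gained. Over all genes, the 266 calls became 20 with no filter, 152 with a mean of at least 5 and 176 with the block. Of the 20 without a filter 12 were higher in CPC, against 88 of the 266.

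The replicate numbers are shared by the groups, but the labels do not say that they pair the cultures. The replicate 1 minus 2 differences of the groups had a Spearman's rho of 0.356 and a Pearson's r of 0.035 across genes, and of 0.376 and 0.186 with short RNA genes left out. With the replicate block, 2 collagens passed, COL12A1 and COL21A1, while COL1A1, COL3A1, COL5A2 and COL6A3 had adjusted p of 0.0541, 0.0802, 0.0541 and 0.0763 in limma. Of the pathway genes 4 passed, with ITGA1 lost and TGFB2 gained as higher in CPC. With the block and short RNA genes left out together, 7 and 5 passed.

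The sign turned only for genes with a small log2 difference. Under quantile normalization SERPINH1 was 0.0434, higher in CPC. With each library left out in turn, the log2 difference ran from -0.0507 to 0.449 for COL27A1, -0.147 to 0.0672 for COL6A1, -0.0536 to 0.181 for COL23A1, -0.076 to 0.261 for P4HA1. It ran from -0.366 to 0.0982 for P4HA2, -0.00523 to 0.12 for PLOD3, -0.0868 to 0.0525 for SERPINH1 and -0.233 to 0.0662 for PCOLCE. The cause was not tested. Values under 1 FPKM rest on few reads, most so in the shallowest library, ECsXAV replicate 2.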
